A study of Mus musculus with 17 samples.

Results

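The genes described here are 37 genes of the NADPH oxidase and of antioxidant defence, chosen by symbol. They are 4 subunits of the phagocyte NADPH oxidase, 3 genes of the NRF2 control circuit, the quinone reductase Nqo1, and genes of the glutathione, thioredoxin, peroxiredoxin, superoxide dismutase and glutathione transferase systems. All 37 symbols were found among the 22859 genes of the count table, and 36 of them passed the filter on low counts that left 15272 genes to test. The 37th, Nqo1, had at most 7 counts in any library.

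The values came from bulk RNA-seq of macrophages that were sorted out of digested synovium, the lining membrane of the joint, of adult mice labelled as Fcgr2b knockouts. All 6 groups carried this genotype, controls included, so that each lacked by label the inhibitory receptor for IgG, and wild-type mice were not analysed here. Mice of the IC groups had been given immune complexes (IC), ovalbumin bound by rabbit antibodies, into a vein 8 h before tissue collection, and mice of the control groups carry the treatment label control, with no statement of what they received. Each sorted subset gave 3 control libraries. After IC there were 3 libraries of LYVE1+CX3CR1+ cells, 3 of MHCII+CD11c- cells and 2 of MHCII+CD11c+ cells. The labels do not state whether libraries came from separate or pooled mice, so p-values measure the spread between these 17 libraries only.

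The phagocyte NADPH oxidase moves electrons from NADPH across a membrane onto oxygen and so makes superoxide, which macrophages use against microbes and as a signal after engulfing opsonized particles. Superoxide dismutases turn superoxide into hydrogen peroxide, which catalase splits into water and oxygen. Peroxiredoxins and glutathione peroxidases reduce it, mostly with electrons that thioredoxin reductase and glutathione reductase draw from NADPH. NRF2, held in check by KEAP1 and opposed at its target sites by BACH1, activates many of the genes that supply this chain.

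Libraries held 2301913 to 7248939 counts, of which 6.80% to 13.4% were mitochondrial. With every library drawn down to 2301913 counts, LYVE1+CX3CR1+ libraries after IC showed 11547 to 13837 genes and all other libraries 13800 to 17512. Fcgr2b itself had 69.3 to 248 CPM (counts scaled to a common library size) in every library, from 167 to 1168 counts, so these gene-level counts do not check the genotype label. Of the sort markers, Cx3cr1, H2-Ab1 and Itgax followed the labels and Lyve1 did so in part. Cx3cr1 was at 244 to 528 CPM in LYVE1+CX3CR1+ libraries and at most 154 in the others, H2-Ab1 of MHC class II was at most 36.8 CPM in LYVE1+CX3CR1+ libraries, and Itgax, which encodes CD11c, was at 275 to 443 CPM in MHCII+CD11c+ libraries and at most 16.1 elsewhere. Lyve1 was at 1727 to 2338 CPM in LYVE1+CX3CR1+ controls and 695 to 1131 CPM in MHCII+CD11c- controls, but MHCII+CD11c- libraries after IC, at 1455 to 2458 CPM, overlapped with the former. It was at 3272 to 4116 CPM in LYVE1+CX3CR1+ libraries after IC and at most 382 CPM in MHCII+CD11c+ libraries. The 7 macrophage markers summed to 2589 to 3394 CPM in MHCII+CD11c+ controls, to 3788 and 4589 CPM in that subset after IC, and to 6889 to 10420 CPM in all other libraries. Neutrophils are rich in the NADPH oxidase, and their 9 markers summed to 52.5 to 399 CPM in controls of both MHCII+ subsets, to 66.6 to 112 CPM in MHCII+CD11c- and 26.4 to 30.8 CPM in MHCII+CD11c+ macrophages after IC, and to at most 41.4 CPM in LYVE1+CX3CR1+ libraries. Csf3r alone gave most of this sum in LYVE1+CX3CR1+ libraries and in both MHCII+ subsets after IC. It was at 47.9 to 92.5 CPM in MHCII+CD11c- and at 23.95 and 29.1 CPM in MHCII+CD11c+ libraries after IC. Of the other markers, S100a9 was at most 10.5 CPM in any library after IC. Its control values were 0 to 92.8 CPM in MHCII+CD11c- and 37.15 to 142.5 CPM in MHCII+CD11c+ libraries. Fibroblast markers summed to 205.9 CPM in control library 1 of MHCII+CD11c+ macrophages and to at most 143 CPM elsewhere, and B cell markers to at most 32.1 CPM.

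The transcripts differed widely in level. Over the 17 libraries, the median level per kilobase of exon was 1069 CPM per kb for Selenop, the selenium carrier, 563 for Gpx1, a cytosolic glutathione peroxidase, and 238 for Cyba, the p22phox subunit of the oxidase. Ncf1, the organizer p47phox, stood at 106.5 CPM per kb, Prdx1 at 104 and Cybb, the catalytic subunit gp91phox, at 88.3. The lowest were Gss, which makes glutathione, at 1.49 CPM per kb, Sod3, the extracellular superoxide dismutase, at 0.868, and Nqo1 at 0.449. All other values below are CPM per gene, scaled for library size by TMM factors and not for length, and are compared for 1 gene at a time.

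**Figure D1:**
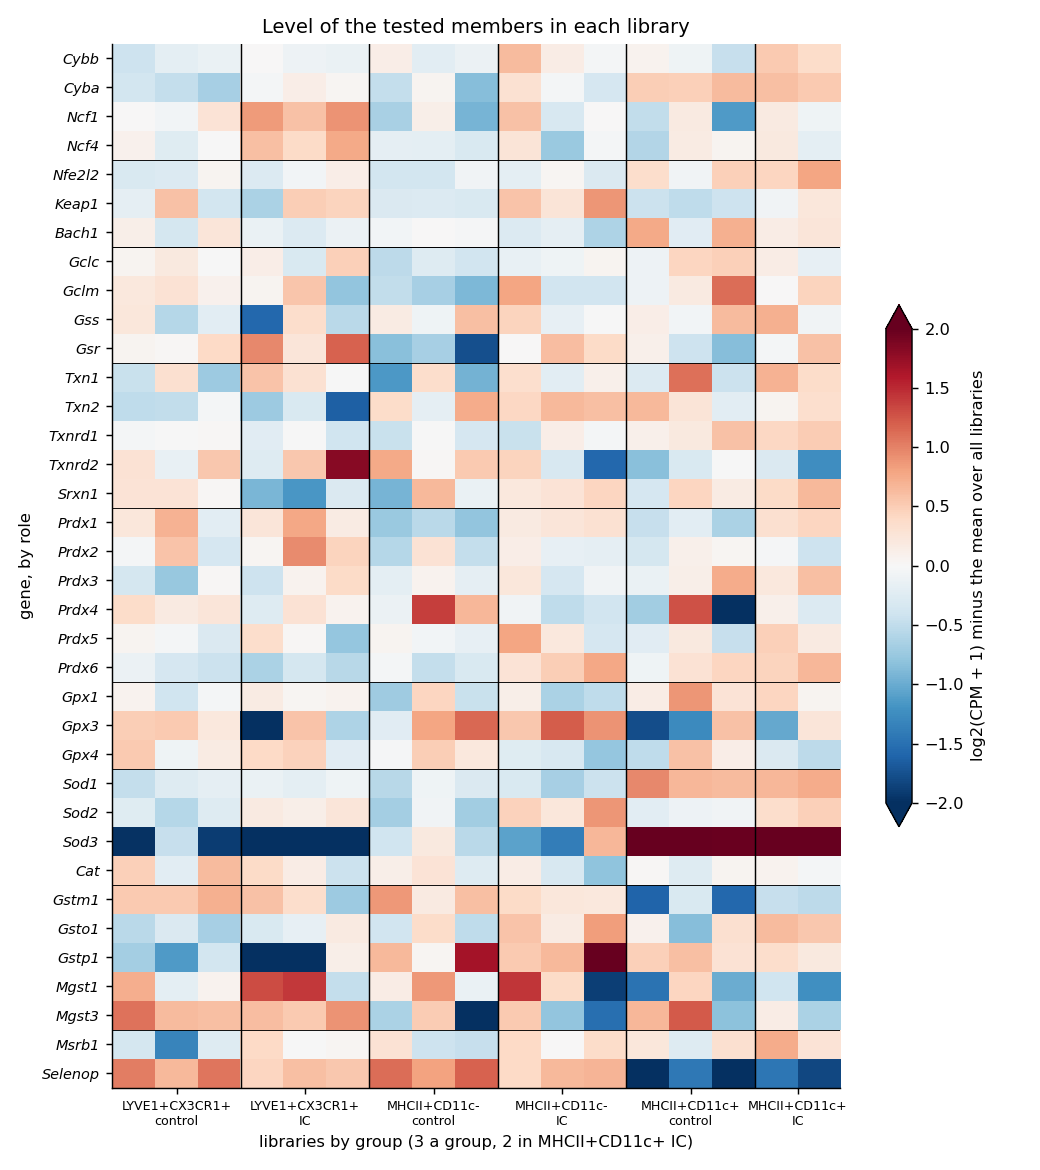
Each row is 1 of the 36 tested genes and each column 1 of 17 libraries, ordered by group; colour gives log2(CPM + 1) minus the mean of the gene over all libraries, limited to 2 on either side. Selenop and Gstm1 are low and Sod1, Sod3 and Cyba high across the MHCII+CD11c+ libraries. Other rows also vary between libraries, such as Gsr, at 5.35 to 47.7 CPM, and Prdx4, at 4.16 to 62.7 CPM.

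The first question was whether these genes responded to circulating IC. Sod2, the mitochondrial superoxide dismutase, and Prdx1, a peroxiredoxin that removes hydrogen peroxide in the cytosol, rose in MHCII+CD11c- macrophages, by 2.01-fold and 1.91-fold. Averaged over the 3 subsets, Sod2, Prdx1 and Gsr, the glutathione reductase, rose by 1.62-fold, 1.54-fold and 1.91-fold. A gene is called here at an adjusted p under 0.05 from edgeR's quasi-likelihood test, with Benjamini-Hochberg adjustment over all 15272 genes. In MHCII+CD11c- macrophages 2 of the 36 tested genes were called, both higher, where 0.701% of all genes were called. For the mean over the 3 subsets 3 of 36 were called, all higher, against 3.35% of all genes.

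In LYVE1+CX3CR1+ macrophages none of the 36 was called by edgeR, where 0.963% of all genes were, and 8 had an unadjusted p under 0.05 (14.1% of all genes did). DESeq2 and limma voom also called 0, with 8 and 9 at an unadjusted p under 0.05. In MHCII+CD11c+ macrophages, with 2 libraries after IC, edgeR called none of the 36 and 0.216% of all genes. There 3 of the 36 had an unadjusted p under 0.05, and DESeq2 and voom called 0 with 3 and 5 such genes.

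The median log2 fold change of the 36 genes was 0.08 in LYVE1+CX3CR1+ macrophages, where that of all tested genes was -0.14. It was 0.18 in MHCII+CD11c- macrophages against -0.03 for all genes, and 0.15 in MHCII+CD11c+ macrophages against 0.01. The value of 0.08 does not depend on the fitted value of Sod3, which was at 0 in all LYVE1+CX3CR1+ libraries after IC, as long as that value is below the median. In this order of the subsets, fold changes were above 0 for 21, 25 and 23 of the 36 genes. Of all tested genes, 40.3%, 47.8% and 51.05% were above 0. In LYVE1+CX3CR1+ macrophages every IC library was above every control library for 5 of the 36 (Cyba, Ncf1, Ncf4, Sod2 and Msrb1; 4.95% of all genes did so) and below for 3 (Srxn1, Sod3 and Selenop; 16.7% of all genes). For Sod3 this rests on 3, 12 and 4 counts in controls, or 0.472, 3.24 and 0.558 CPM. Its counts of 0 after IC allow up to 0.878 to 1.24 CPM. In MHCII+CD11c- macrophages 7 were without overlap on the high side (Sod2, Prdx1, Gsr, Prdx6, Keap1, Gclm and Gclc; 8.72% of all genes) and 3 on the low side (Gpx4, Selenop and Bach1; 8.48%). In MHCII+CD11c+ macrophages 6 were higher without overlap (Prdx1, Cybb, Sod2, Gsto1, Keap1 and Prdx6; 14.1% of all genes) and 0 lower (9.02%).

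**Figure D2:**
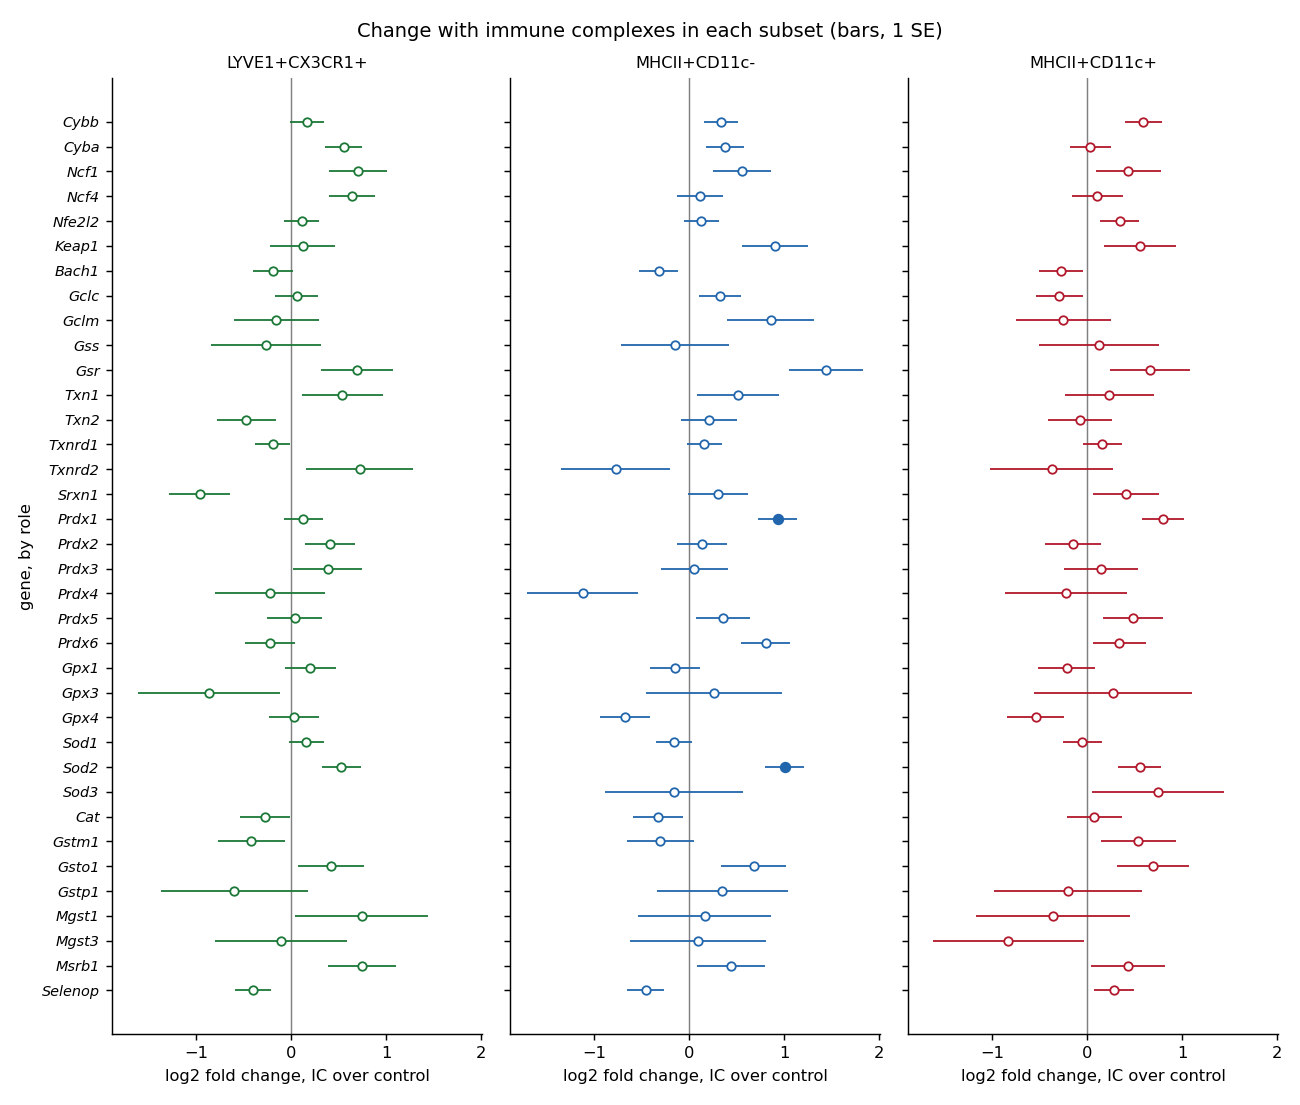
The log2 fold change of IC over control is shown for each tested gene in each subset, with bars of 1 SE; filled points passed the test, and Sod3 is left out of the LYVE1+CX3CR1+ panel, where all IC libraries were at 0. Filled points are Prdx1 and Sod2 in MHCII+CD11c- macrophages, and the 4 oxidase genes in the top rows lie at or to the right of 0 in the 3 panels.

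The oxidase subunits come first. Cybb (chrX:9435252-9487771, minus strand) encodes the membrane subunit that carries the electrons. It was at 407, 475 and 498 CPM in LYVE1+CX3CR1+ controls and at 547, 504 and 497 CPM after IC. MHCII+CD11c- controls had 597, 468 and 500.2 CPM, and the IC libraries 843, 601 and 529 CPM. For MHCII+CD11c+ macrophages the controls had 573, 513 and 396 CPM and the IC libraries 785 and 704 CPM. Control and IC libraries overlapped in both other subsets, and in MHCII+CD11c+ macrophages both IC libraries were above all 3 controls. The log2 fold changes (± SE) were 0.17 ± 0.18, 0.33 ± 0.18 and 0.59 ± 0.20, with adjusted p of 0.749, 0.564 and 0.541 by edgeR. For the mean over the subsets the change was 0.36 ± 0.11 with an adjusted p of 0.0623, just short of being called. The neutrophil marker sum, given above, was lower after IC in MHCII+CD11c+ macrophages, where Cybb values were higher, and the macrophage marker sum was higher there after IC. The part of either in the Cybb values was not tested.

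Cyba (chr8:122424776-122432930, minus strand) encodes the partner that stabilizes gp91phox. It was at 185, 171 and 151 CPM in LYVE1+CX3CR1+ controls and at 234, 262 and 247 CPM after IC, without overlap. MHCII+CD11c- controls had 172, 248 and 132 CPM, and IC libraries of that subset 295, 233 and 190.4 CPM. MHCII+CD11c+ controls had 338, 333 and 371 CPM and both IC libraries 366 and 345 CPM. The change in LYVE1+CX3CR1+ macrophages, 0.55 ± 0.20 on the log2 scale, had an adjusted p of 0.196 by edgeR.

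The cytosolic subunits showed a like picture in LYVE1+CX3CR1+ macrophages. Ncf1, the organizer, ranged from 371 to 467 CPM in controls and from 580.4 to 724 CPM after IC, a log2 change of 0.70 ± 0.31 (adjusted p = 0.302 by edgeR). Ncf4, which encodes p40phox, ranged from 68.4 to 86.5 CPM in controls and from 106 to 139 CPM after IC, a change of 0.64 ± 0.24 (adjusted p = 0.215 by edgeR). In the other subsets the control and IC ranges of both genes overlapped. The widest control range was that of Ncf1 in MHCII+CD11c+ macrophages, 177 to 441 CPM, with the highest value in control library 2.

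The median log2 fold change of the 4 subunits was 0.60 in LYVE1+CX3CR1+ macrophages and 0.36 and 0.27 in those that were MHCII+CD11c- and MHCII+CD11c+, and all 4 fitted values were above 0 in each subset. The sign of Cyba in MHCII+CD11c+ macrophages, where the change was 0.03 ± 0.22, turned under 8 of 11 other settings, and that of Ncf4 in MHCII+CD11c- macrophages turned under 1 of 11. In bulk libraries, a different share of cells with a transcript and a different amount of it per cell cannot be told apart.

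**Figure D3:**
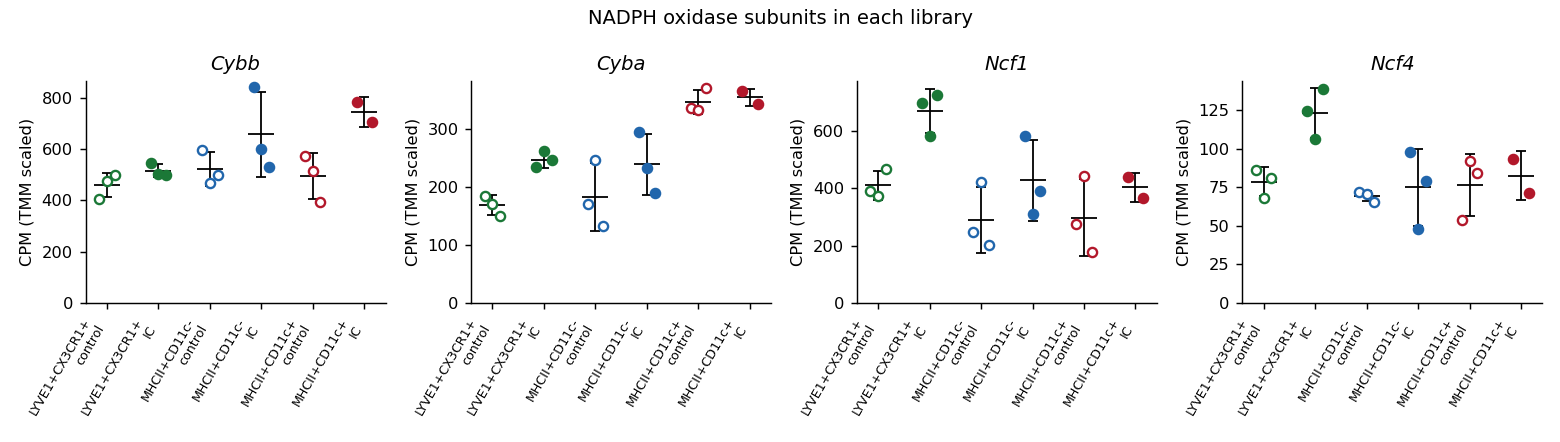
CPM of the 4 oxidase subunits in each library, by group on the x axis; open circles are controls, filled circles IC, and lines give the mean ± SD. Cyba, Ncf1 and Ncf4 separate in LYVE1+CX3CR1+ macrophages (Ncf1 at 371 to 467 CPM against 580.4 to 724), and Cyba is highest in the MHCII+CD11c+ groups.

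Of the control circuit, Nfe2l2 (chr2:75675513-75704641, minus strand), which encodes NRF2, was at 193, 197 and 246 CPM in LYVE1+CX3CR1+ controls and at 197, 229 and 262 CPM after IC. It was at 184, 184 and 226 CPM in MHCII+CD11c- controls and at 209, 244 and 195 CPM after IC. Among MHCII+CD11c+ libraries, controls were at 306, 228 and 331 CPM and those after IC at 319 and 411 CPM. Control and IC libraries overlapped in every subset, and the changes of 0.11 ± 0.18, 0.13 ± 0.18 and 0.34 ± 0.20 had adjusted p of 0.865, 0.928 and 1 by edgeR.

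Keap1 (chr9:21229730-21239361, minus strand) encodes the adaptor through which NRF2 is degraded. It was at 22.8, 39.5 and 19.8 CPM in LYVE1+CX3CR1+ controls and at 16.4, 36.8 and 35.7 CPM after IC. Its values in MHCII+CD11c- libraries were 21.1, 21.4 and 20.7 CPM without IC and 38.8, 31.3 and 48.4 CPM with IC. MHCII+CD11c+ controls had 18.9, 18.02 and 19.3 CPM and both IC libraries 24.7 and 30.6 CPM. Both MHCII+ subsets had no overlap and tight controls, with log2 changes of 0.90 ± 0.34 and 0.56 ± 0.38 (adjusted p = 0.315 and 1 by edgeR). For the mean over the subsets the change was 0.53 ± 0.21 with an adjusted p of 0.168.

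Bach1 (chr16:87698945-87733346, plus strand) encodes the repressor that competes with NRF2. It was at 339, 245 and 372 CPM in LYVE1+CX3CR1+ controls and at 286, 260.0 and 289 CPM after IC. MHCII+CD11c- controls had 303, 317 and 307 CPM, and IC libraries of that subset 258, 278 and 204 CPM, without overlap. Among MHCII+CD11c+ libraries, controls were at 529, 267 and 515 CPM and those after IC at 348 and 373 CPM. Its fitted changes were below 0 in each subset, at -0.19 ± 0.21, -0.32 ± 0.21 and -0.28 ± 0.24, with adjusted p of 0.752, 0.687 and 1 by edgeR.

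Nqo1 (chr8:107388225-107403206, minus strand), a quinone reductase that NRF2 induces in many tissues, was at most 1.67 CPM in any library and was not tested. Counts were 2, 3 and 5 in LYVE1+CX3CR1+ controls and 0, 3 and 0 after IC. They were 7, 4 and 5 in MHCII+CD11c- controls and 6, 0 and 0 after IC. For MHCII+CD11c+ macrophages they were 3, 2 and 0 in controls and 7 and 6 after IC, which is above all 3 controls. With so few counts, at or near the floor of 3 in most groups, no fold is given.

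Among the genes of glutathione supply, Gsr (chr8:33652523-33698163, plus strand), which returns oxidized glutathione to its reduced form, was at 21.4, 20.8 and 27.4 CPM in LYVE1+CX3CR1+ controls and at 41.0, 24.6 and 47.7 CPM after IC. It was at 11.1, 12.6 and 5.35 CPM in MHCII+CD11c- controls and at 20.6, 32.1 and 27.2 CPM after IC. MHCII+CD11c+ controls had 22.1, 15.2 and 10.97 CPM and both IC libraries 19.98 and 31.5 CPM. The libraries of MHCII+CD11c- macrophages did not overlap, and in each other subset 1 IC library lay within the control range. The mean change over the subsets was 0.93 ± 0.23 on the log2 scale, with an adjusted p of 0.0227 by edgeR. The largest of the 3 single changes, 1.44 ± 0.39 in MHCII+CD11c- macrophages, had an adjusted p of 0.0987, whereas DESeq2 called it at an adjusted p of 0.0196. The call for the mean was lost when 1 library was left out, to an adjusted p of 0.132 without IC library 2 of MHCII+CD11c+, 0.0567 without control library 1 and 0.0508 without control library 2 of LYVE1+CX3CR1+ macrophages. It was also lost with surrogate variables as covariates (adjusted p = 0.0525).

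Gclc and Gclm encode the subunits of the enzyme that begins glutathione synthesis. Gclc in MHCII+CD11c- macrophages ranged from 48.0 to 58.1 CPM in controls and from 62.5 to 72.1 CPM after IC, and Gclm from 8.02 to 10.9 CPM and from 11.8 to 27.9 CPM. Neither gene was called there, with log2 changes of 0.33 ± 0.22 and 0.86 ± 0.46 (adjusted p = 0.728 and 0.562 by edgeR). Gss did not exceed 15.1 CPM in any library.

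In the thioredoxin system, Srxn1, the sulfiredoxin that repairs overoxidized peroxiredoxins, ranged from 51.5 to 61.7 CPM in LYVE1+CX3CR1+ controls and from 22.03 to 41.5 CPM after IC. Its log2 change there was -0.96 ± 0.32 (adjusted p = 0.163 by edgeR). In both MHCII+ subsets its control and IC libraries overlapped, with changes of 0.30 ± 0.31 and 0.41 ± 0.35. Txnrd1, the cytosolic thioredoxin reductase, stayed between 152 and 313 CPM over all libraries. Thioredoxin itself, Txn1, was at 129 CPM in control library 2 of MHCII+CD11c+ macrophages and at 49.1 and 43.9 CPM in control libraries 1 and 3. That library was also the highest of its group for Gpx1, at 1425 CPM, and for Prdx4, at 58.1 CPM.

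Of the 6 peroxiredoxins, Prdx1 (chr4:116685544-116700822, plus strand) gave the clearest values. It was at 330.3, 457 and 243 CPM in LYVE1+CX3CR1+ controls and at 331, 478 and 315 CPM after IC. Its values in MHCII+CD11c- libraries were 167, 193 and 162 CPM without IC and 318, 333 and 346 CPM with IC. Among MHCII+CD11c+ libraries, controls were at 205, 244 and 182 CPM and those after IC at 352 and 378 CPM. Every IC library of both MHCII+ subsets was above its controls, whereas the LYVE1+CX3CR1+ libraries overlapped throughout. The log2 change was 0.93 ± 0.20 in MHCII+CD11c- macrophages (adjusted p = 0.0264 by edgeR). It was 0.80 ± 0.22 in the MHCII+CD11c+ subset (adjusted p = 0.266). For LYVE1+CX3CR1+ macrophages it was 0.13 ± 0.20 (adjusted p = 0.857). The mean over the subsets was 0.62 ± 0.12 (adjusted p = 0.00413), and this call was kept under 27 of 27 other settings and left-out libraries.

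The Prdx1 call in MHCII+CD11c- macrophages depended on single libraries. The adjusted p was 0.143 without control library 1, 0.181 without control library 3, 0.0898 without IC library 2 and 0.121 without IC library 3, with log2 changes of 0.88 to 0.93. With total counts alone as the scale it was 0.0530.

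Prdx6, which uses glutathione in place of thioredoxin, ranged from 26.9 to 36.7 CPM in MHCII+CD11c- controls and from 45.7 to 65.2 CPM after IC, a log2 change of 0.80 ± 0.26 (adjusted p = 0.201 by edgeR). The other 4 peroxiredoxins overlapped between control and IC in each subset.

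Of the glutathione peroxidases, Gpx4, which reduces lipid peroxides in membranes, ranged from 77.4 to 111 CPM in MHCII+CD11c- controls and from 45.7 to 66.5 CPM after IC. The log2 change of -0.67 ± 0.26 had an adjusted p of 0.337 by edgeR. Gpx1, the most abundant of them, ranged from 471 to 1425 CPM over all libraries, and Gpx3, the secreted form, did not exceed 20.4 CPM.

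Sod2 (chr17:13006846-13040063, plus strand) gave the smallest p of the IC comparisons. It was at 85.4, 67.6 and 84.1 CPM in LYVE1+CX3CR1+ controls and at 114, 109 and 120 CPM after IC. MHCII+CD11c- controls had 62.3, 96.1 and 61.9 CPM, and IC libraries of that subset 140, 118 and 186 CPM. MHCII+CD11c+ controls had 86.8, 93.4 and 95.7 CPM and both IC libraries 129 and 141 CPM. All 8 IC libraries lay above all 9 control libraries, whatever the subset. The log2 changes were 0.53 ± 0.21, 1.01 ± 0.21 and 0.55 ± 0.23, with adjusted p of 0.230, 0.0162 and 0.820 by edgeR. The mean over the subsets was 0.70 ± 0.12 (adjusted p = 0.00165) and was called under 27 of 27 other settings and left-out libraries.

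The call of Sod2 in MHCII+CD11c- macrophages was again sensitive to single libraries. The adjusted p was 0.140 without control library 1, 0.131 without control library 3 and 0.173 without IC library 3, with log2 changes of 0.82 to 0.90, and 0.0969 when only the libraries of this subset were fitted.

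**Figure D4:**
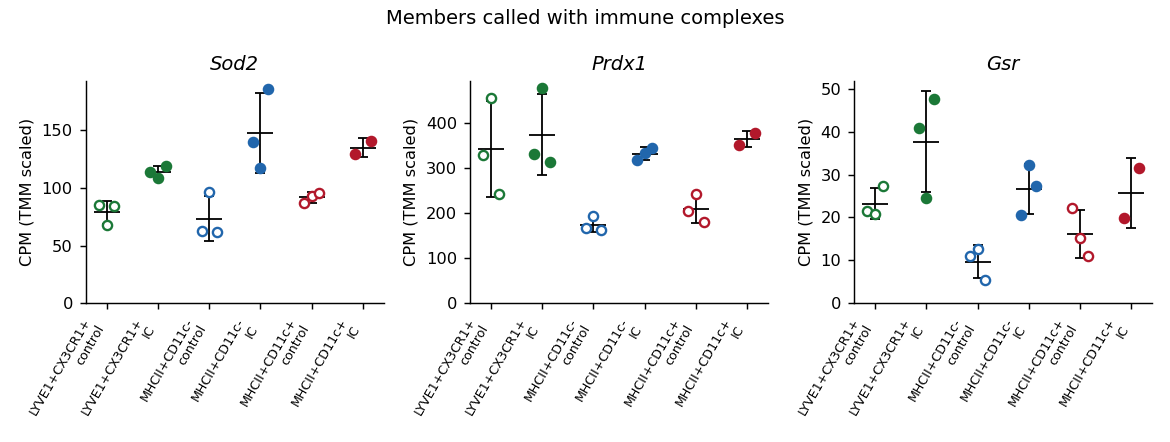
CPM of Sod2, Prdx1 and Gsr in each library, by group on the x axis; open circles are controls, filled circles IC, and lines give the mean ± SD. All Sod2 values after IC, 109 to 186 CPM, are above all control values, 61.9 to 96.1 CPM, whereas Prdx1 overlaps in LYVE1+CX3CR1+ macrophages.

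The bases before the start of both genes called in MHCII+CD11c- macrophages are given so that the promoters can be set beside these values. They are from RefSeq on GRCm38.p6, plus strand, at chr4:116685349-116685598 for Prdx1 and chr17:13007589-13007838 for Sod2, each 250 bases that end next to the start. Capitals mark a match to TGACNNNGC, the core of the antioxidant response element that NRF2 binds with small MAF proteins, searched on both strands.
Prdx1: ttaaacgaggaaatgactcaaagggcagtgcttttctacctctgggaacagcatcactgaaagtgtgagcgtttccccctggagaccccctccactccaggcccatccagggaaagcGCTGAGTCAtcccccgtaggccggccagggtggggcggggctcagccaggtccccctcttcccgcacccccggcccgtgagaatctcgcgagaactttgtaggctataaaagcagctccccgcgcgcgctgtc
Sod2: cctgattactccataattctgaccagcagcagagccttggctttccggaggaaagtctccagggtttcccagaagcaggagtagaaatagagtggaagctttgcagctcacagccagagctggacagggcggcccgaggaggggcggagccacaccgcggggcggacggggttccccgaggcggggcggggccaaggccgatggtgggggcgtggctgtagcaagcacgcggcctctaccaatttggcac

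The Prdx1 stretch held 1 match, on the minus strand, and the Sod2 stretch held none, which says only that these letters are not in that window. Windows of 300 bases, 250 before to 50 after the start, were at hand for 32 of the 37 genes, and 7 of these 32 (21.9%) held a match, beside 3781 of 27025 genes (13.99%) of the whole table. These 7 are shown as 30 bases each on the strand of the gene, with the match in capitals. The match began 240 bases before the start in Nfe2l2, 134 in Gclm, 133 in Prdx1, 92 in Txnrd1 and 56 in Sod1 and Mgst1, and 28 bases after it in Srxn1.
Nfe2l2, chr2:75704884-75704913, minus strand: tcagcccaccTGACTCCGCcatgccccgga
Srxn1, chr2:152105542-152105571, plus strand: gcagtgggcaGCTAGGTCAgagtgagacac
Gclm, chr3:122245413-122245442, plus strand: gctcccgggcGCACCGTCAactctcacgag
Prdx1, chr4:116685456-116685485, plus strand: cagggaaagcGCTGAGTCAtcccccgtagg
Mgst1, chr6:138140461-138140490, plus strand: gcggggcttgGCACGGTCAggaggcggggt
Txnrd1, chr10:82859104-82859133, plus strand: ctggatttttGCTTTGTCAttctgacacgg
Sod1, chr16:90220696-90220725, plus strand: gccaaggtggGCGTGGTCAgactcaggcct

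Fitted log2 changes of these 7 genes with IC had both signs in each subset. In LYVE1+CX3CR1+ macrophages they were -0.96 for Srxn1, -0.20 for Txnrd1 and -0.16 for Gclm. Above 0 there were Nfe2l2 at 0.11, Prdx1 at 0.13, Sod1 at 0.16 and Mgst1 at 0.74. In MHCII+CD11c- macrophages only Sod1 was below 0, at -0.16. The others there were Nfe2l2 at 0.13, Txnrd1 and Mgst1 at 0.16, Srxn1 at 0.30, Gclm at 0.86 and Prdx1 at 0.93. MHCII+CD11c+ values were -0.36 for Mgst1, -0.25 for Gclm and -0.06 for Sod1. Above 0 in that subset were Txnrd1 at 0.16, Nfe2l2 at 0.34, Srxn1 at 0.41 and Prdx1 at 0.80. Of these 7, Prdx1 alone was called with IC.

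The second question was how the 3 subsets differed at rest. Selenop was far lower in MHCII+CD11c+ macrophages than in both other subsets, Gstm1 was lower there too, and Cyba, Sod1 and Sod3 were higher. The macrophage marker sum was lower in MHCII+CD11c+ than in all other libraries, and its part in these differences was not tested. Of the 36 genes, 6 were called for LYVE1+CX3CR1+ against MHCII+CD11c+ controls, 3 in each direction, where 15.2% of all genes were. For MHCII+CD11c+ against MHCII+CD11c- controls 5 were called, 3 higher and 2 lower in MHCII+CD11c+, against 8.66% of all genes. For LYVE1+CX3CR1+ against MHCII+CD11c- controls 1 was called, Prdx1, against 1.56%. Comparisons of a pair of subsets share the control libraries of the subset they have in common. The median log2 differences of the 36 genes were -0.16, 0.14 and 0.01 in this order, and those of all genes 0.05, -0.03 and -0.00.

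Selenop (chr15:3268547-3280508, plus strand), which carries selenium out of the cell, was at 4081, 3128 and 4234 CPM in LYVE1+CX3CR1+ and at 4335, 3487 and 4558 CPM in MHCII+CD11c- controls. In MHCII+CD11c+ controls it was at 371, 740.1 and 500.3 CPM. Every MHCII+CD11c+ library was below every library of the other subsets. The difference was 7.10-fold against LYVE1+CX3CR1+ (log2 2.83 ± 0.21, adjusted p = 1.4e-09 by edgeR) and 7.68-fold against MHCII+CD11c- macrophages (2.94 ± 0.21 in size, adjusted p = 2.8e-09). The antisense gene Ccdc152, which overlaps it, was at most 12.4 CPM in any library.

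After IC, Selenop was at 2710, 3037 and 2901 CPM in LYVE1+CX3CR1+ and at 2640, 3158 and 3201 CPM in MHCII+CD11c- macrophages. All these values were below the controls of their subset, with log2 changes of -0.40 ± 0.19 and -0.46 ± 0.19 that did not pass the test (adjusted p = 0.349 and 0.398 by edgeR). In MHCII+CD11c+ macrophages after IC it was at 737 and 569 CPM, within the control range.

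Gstm1 (chr3:108012255-108017973, minus strand), a glutathione transferase, was at 46.6, 46.8 and 53.6 CPM in LYVE1+CX3CR1+ controls. It was at 59.5, 36.6 and 49.2 CPM in MHCII+CD11c- and at 9.997, 26.01 and 10.2 CPM in MHCII+CD11c+ controls. The MHCII+CD11c+ controls lay below both other groups, which overlapped with each other, and the differences were 1.65 ± 0.36 between LYVE1+CX3CR1+ and MHCII+CD11c+ (adjusted p = 0.00225 by edgeR) and -1.63 ± 0.36 for MHCII+CD11c+ minus MHCII+CD11c- controls (adjusted p = 0.00479). Without control library 2 of MHCII+CD11c+ macrophages, the one at 26.01 CPM, they were 2.28 and -2.26. After IC, its values were 48.6, 41.5 and 19.1 CPM in LYVE1+CX3CR1+ libraries, 42.1, 37.9 and 37.4 CPM in those of MHCII+CD11c- cells, and 23.2 and 22.2 CPM in those of MHCII+CD11c+ cells, and each group overlapped with its controls. The other 4 transferases were not called in any comparison.

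Sod1 (chr16:90220754-90226329, plus strand), the cytosolic superoxide dismutase, was at 66.5, 77.3 and 81.9 CPM in LYVE1+CX3CR1+ and at 62.5, 86.8 and 75.6 CPM in MHCII+CD11c- controls. In MHCII+CD11c+ controls it was at 182, 146 and 143 CPM, above all libraries of the other subsets. The differences were -1.06 ± 0.19 for LYVE1+CX3CR1+ against MHCII+CD11c+ (adjusted p = 0.000219 by edgeR) and 1.07 ± 0.19 for MHCII+CD11c+ against MHCII+CD11c- (adjusted p = 0.000495). After IC, Sod1 was at 84.0, 80.3 and 87.5 CPM in LYVE1+CX3CR1+ libraries, at 74.5, 57.9 and 68.5 CPM in MHCII+CD11c- libraries, and at 147 and 156 CPM in MHCII+CD11c+ libraries, overlapping with the controls of each subset.

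Sod3 (chr5:52363791-52371418, plus strand), which is secreted and held at the matrix, was at 0.472, 3.24 and 0.558 CPM in LYVE1+CX3CR1+ controls, from 3, 12 and 4 counts. In MHCII+CD11c- controls it was at 3.41, 5.66 and 3.01 CPM, and in MHCII+CD11c+ controls at 23.8, 65.9 and 21.9 CPM. The lowest MHCII+CD11c+ library was above the highest of the others. The difference was -4.86 ± 0.80 for LYVE1+CX3CR1+ against MHCII+CD11c+ (adjusted p = 0.000222 by edgeR) and 3.18 ± 0.71 for MHCII+CD11c+ against MHCII+CD11c- macrophages (adjusted p = 0.00692). Both sizes rest on few counts in the lower groups and moved with single libraries. The first was -6.10 without LYVE1+CX3CR1+ control library 2 and -5.56 with surrogate variables. Without control library 2 of MHCII+CD11c+ macrophages they were -4.14 and 2.48, and all of these stayed called. After IC it was at 69.8 and 55.3 CPM in MHCII+CD11c+ and at 1.77, 1.24 and 8.26 CPM in MHCII+CD11c- macrophages. In LYVE1+CX3CR1+ macrophages after IC it had 0 counts in all 3 libraries, which allows up to 0.878 to 1.24 CPM. No fold is given there, since 1 control library was itself at the floor of 3 counts.

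Sod3 is a gene that fibroblasts can also express. Fibroblast marker sums in MHCII+CD11c+ controls were 205.9, 37.3 and 8.70 CPM in libraries 1, 2 and 3, and Sod3 was highest in library 2. After IC, with marker sums of 16.6 and 50.6 CPM, Sod3 was at 69.8 and 55.3 CPM, on either side of the 65.9 CPM of that library. The part of fibroblasts in the Sod3 values was not tested.

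Cyba, whose values are given above, was 2.06-fold higher in MHCII+CD11c+ controls than in those of LYVE1+CX3CR1+ macrophages (a log2 difference of -1.04 ± 0.20 for LYVE1+CX3CR1+ minus MHCII+CD11c+, adjusted p = 0.000582 by edgeR) and 1.89-fold higher than in those of MHCII+CD11c- macrophages (0.91 ± 0.20, adjusted p = 0.00387). Its control values did not overlap between MHCII+CD11c+ and either other subset. Cyba in control libraries was highest where the neutrophil marker sum was highest by subset, at 87.5 to 399 CPM in MHCII+CD11c+ controls, and the part of these cells in the difference was not tested. In MHCII+CD11c+ macrophages after IC, where that sum was 26.4 to 30.8 CPM, Cyba was at 366 and 345 CPM.

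Prdx1 went the other way among subsets, with LYVE1+CX3CR1+ controls above MHCII+CD11c- controls by 0.98 ± 0.20 (adjusted p = 0.0118 by edgeR) and above MHCII+CD11c+ controls by 0.71 ± 0.20 (adjusted p = 0.0181). The first pair did not overlap. The second did, by 1 value on either side, at 243 CPM in LYVE1+CX3CR1+ and 244 CPM in MHCII+CD11c+ controls. Without LYVE1+CX3CR1+ control library 2, the highest at 457 CPM, the differences were 0.72 (adjusted p = 0.122) and 0.45 (adjusted p = 0.182). The first call was also lost without control library 1 or 3 of MHCII+CD11c- macrophages, at an adjusted p of 0.0642 and 0.0850. The second was lost without control library 1 or 3 of MHCII+CD11c+ macrophages, at 0.0600 and 0.0960, with surrogate variables, at 0.145, and when only these groups were fitted, at 0.0745.

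Control library 2 of MHCII+CD11c+ macrophages also bore on the number of calls. Its Lyve1 was at 382 CPM, against 29.8 and 25.3 CPM in control libraries 1 and 3. For C1qa these values were 667, 173 and 186 CPM, and for Csf1r 714, 706 and 670 CPM. In the IC libraries of this subset Lyve1 was at 303 and 137 CPM and C1qa at 896 and 389 CPM. The part of these differences in the calls was not tested. Without control library 2 of MHCII+CD11c+ macrophages, 10 genes in place of 6 were called for LYVE1+CX3CR1+ against MHCII+CD11c+ controls, with Bach1, Ncf1, Nfe2l2 and Prdx4 added. Between MHCII+CD11c+ and MHCII+CD11c- controls 8 in place of 5 were called without it, and 8 without control library 2 of MHCII+CD11c- macrophages. Shares of all genes called in these fits are not given here, so the counts cannot be read as particular to the listed genes.

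**Figure D5:**
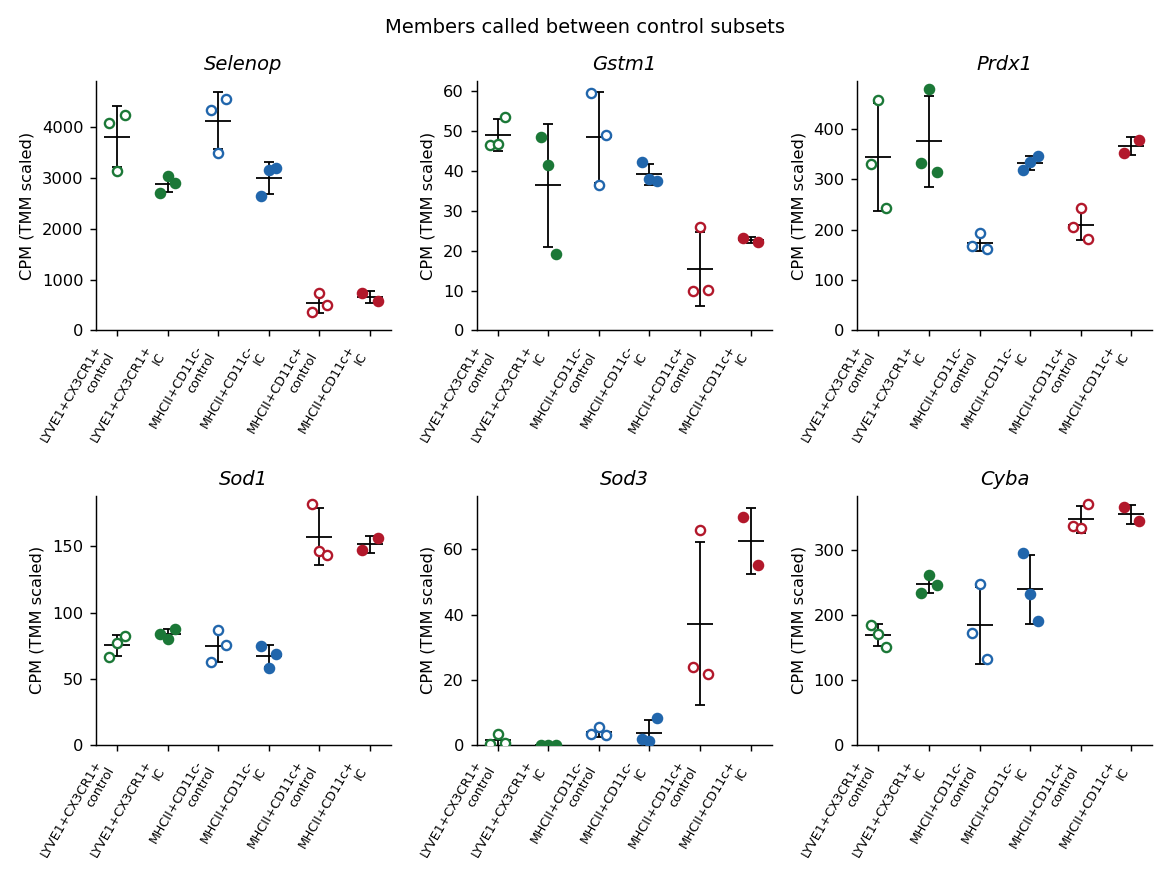
CPM of the 6 genes called between control subsets in each library, by group on the x axis; open circles are controls, filled circles IC, and lines give the mean ± SD. Selenop is at 371 to 740.1 CPM in MHCII+CD11c+ controls and above 3000 CPM in other controls, while Sod1, Sod3 and Cyba are highest in MHCII+CD11c+ macrophages.

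The third question was whether the response to IC differed between subsets, tested as the difference of the fold changes (interaction). No member was called by edgeR in any of the 3 differences, where 0.0262% of all genes were called for LYVE1+CX3CR1+ minus MHCII+CD11c-, 0.0327% for LYVE1+CX3CR1+ minus MHCII+CD11c+ and 0% for MHCII+CD11c+ minus MHCII+CD11c-. By edgeR, 4, 4 and 1 of the 36 genes had an unadjusted p under 0.05. DESeq2 called 0 in each with 6, 3 and 1, and voom called 0 in each with 5, 5 and 2.

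The difference for Prdx1 was -0.80 ± 0.29 between LYVE1+CX3CR1+ and MHCII+CD11c- macrophages (adjusted p = 0.508 by edgeR) and -0.67 ± 0.30 between LYVE1+CX3CR1+ and MHCII+CD11c+ macrophages (adjusted p = 0.586). For Srxn1 these were -1.27 ± 0.45 (adjusted p = 0.508) and -1.37 ± 0.47 (adjusted p = 0.397). For Sod2, which was called in MHCII+CD11c- macrophages, they were -0.48 ± 0.29 (adjusted p = 0.758) and -0.03 ± 0.31 (adjusted p = 1). A call in 1 subset was thus not accompanied by a called difference between subsets. The medians of all genes were -0.16, -0.21 and 0.05 in the 3 differences, and with RLE in place of TMM scaling the first was -0.03.

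Other genes of the pathway came from a list of 69 oxidase partners, NRF2 targets, NADPH suppliers, glutathione and thioredoxin partners, selenoprotein genes and sestrins, of which 66 were in the table and 55 tested. Hmox1, the heme oxygenase that is a classical target of NRF2 and BACH1, rose from 586 ± 117 to 1060 ± 151 CPM (SD, n = 3 each) in MHCII+CD11c- macrophages, by 0.85 ± 0.17 (SE) on the log2 scale, with an adjusted p of 0.0153 by edgeR. In MHCII+CD11c+ macrophages it rose from 207 ± 27.4 (SD, n = 3) to 395 ± 56.5 CPM (n = 2), by 0.93 ± 0.19, with an edgeR adjusted p of 0.0352. It was the only one of the 55 called in either subset, where 0.701% and 0.216% of all genes were called. None was called in LYVE1+CX3CR1+ macrophages, where 10 had an unadjusted p under 0.05. For the mean over the subsets 4 of 55 were called, all higher, beside 3.35% of all genes. They were Hmox1 (0.58), Glrx, a glutaredoxin (1.09), Esd, an esterase of formaldehyde detoxification (0.66), and Selenos, a selenoprotein of the endoplasmic reticulum (0.69, all log2). The Hmox1 changes in both MHCII+ subsets, 0.85 and 0.93, were each larger than this mean over the subsets, 0.58.

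Between control subsets, 19 of the 55 were called for LYVE1+CX3CR1+ against MHCII+CD11c+ macrophages, 12 higher and 7 lower, beside 15.2% of all genes. Sesn1, a sestrin, was at 131 against 28.7 CPM, Hmox1 at 553 against 207, and Blvrb, a biliverdin reductase, at 82.5 against 26.7, while Glrx was at 9.57 against 36.2 CPM. Against MHCII+CD11c- controls, MHCII+CD11c+ controls had 7 of 55 called, beside 8.66% of all genes. They were 1 higher gene, Slc7a11, the cystine importer, and 6 lower, among them Hmox1 (-1.50), Sesn1 (-1.72), Blvrb (-1.78) and Txnip, the thioredoxin inhibitor (-1.02, all log2). No gene of this list was called for LYVE1+CX3CR1+ against MHCII+CD11c- controls or in the 3 interactions, with 8, and 5, 8 and 0, at an unadjusted p under 0.05.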

How the data were processed

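Each library took 5 ng of total RNA into a kit for small stranded inputs, with paired-end sequencing. Per the labels and methods, the authors removed the first bases of read 1, trimmed with Trim Galore, checked with FastQC, aligned to mm10 with HISAT2 and counted reads per gene with featureCounts in Rsubread. The deposited values are raw counts per gene symbol. Versions, annotation, strand setting and the handling of multiply aligned reads are not given in the sources used here, so counts of overlapping, antisense or copied genes are uncertain, which touches Cyba, Ncf1, Nfe2l2, Keap1, Gclm, Gss, Gsr, Txnrd1, Txnrd2, Prdx2, Prdx5, Sod1, Gsto1 and Selenop (overlapping genes) and Prdx2, Prdx6 and Gpx4 (copies). The authors used DESeq2 and sva, and the batch was not named. Group and number came from the sample titles. The subset names of the labels are read as LYVE1+CX3CR1+ (Lyve1), MHCII+CD11c- (IAIE) and MHCII+CD11c+ (CD11c).

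The joint table was identical to the per-library tables for 17 of 17 libraries. It held 1 further column that matched no label, summed to 0 and was not used. Libraries of a group differed by at least 6.77 in chi-square per degree of freedom (genes with at least 20 counts), so none was a repeat.

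Genes were kept by filterByExpr (minimum count 10), scaled by TMM and fitted in edgeR 4.0.16 (R 4.3.3) with 1 mean for each of 6 groups (robust quasi-likelihood fit, 11 residual degrees of freedom). Adjusted p-values are Benjamini-Hochberg over all 15272 genes of a contrast, with 0.05 as the threshold. The biological coefficient of variation was 45.1%. Fold changes use the default prior count of edgeR's fit, and SE is that of the log2 fold change. A prior count of 2 was used only for log2 CPM values. These entered the length offset, the estimated number of surrogate variables and the correlations between libraries. A library with at most 3 counts of a gene is at the floor, and floors cover counting error only. The scripts were tested on counts simulated for IC against control in LYVE1+CX3CR1+ macrophages. There 4.44% of 90 genes changed 2-fold and 45.7% of 94 genes changed 4-fold were called, and 2 of 49 calls were false. Genes not called are thus not shown to be unchanged. Alternatives were DESeq2 1.42.0, limma 3.58.1 voom with quality weights, RLE, upper-quartile and total-count scaling, no filter, equal depth, 2 surrogate variables (sva 3.50.0), a gene length offset, replicate blocks, only the 2 groups compared, and each library left out. The number of surrogate variables was limited to 2. The leek estimate gave 10 after eigenvalues that were 0 but for rounding had been set to 0, a step added after its unmodified form had varied between runs.

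Named were the listed genes, with values in every library for those called with IC or in an interaction, for up to 6 called genes of each control comparison, and for Cybb, Nfe2l2, Keap1, Bach1 and Nqo1. Of the companion list, at most 4 called genes per comparison were named. Ncf1, Ncf4, Srxn1 and others given by range were picked after their values were seen. The members and lists were chosen with earlier results of these data known. Gene coordinates come from GENCODE M21 (GRCm38), counted from 1. Promoter windows are from RefSeq (GRCm38.p6); Ncf4, Gclc, Gsr, Prdx6 and Sod3 had no entry in the table used here.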

Additional observations from a re-analysis of the deposited data

How the results depend on the processing

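There were 17 calls of single genes in the 5 comparisons with calls. Under other settings 191 of 196 values kept the call, with 1 library left out 273 of 289 did, and none turned its direction. In a comparison of 2 groups most left-out libraries belonged to neither group, so this total says little about dependence on single libraries. In MHCII+CD11c- macrophages the Prdx1 and Sod2 calls were lost without 4 and 3 single libraries, all of that subset. For IC in LYVE1+CX3CR1+ macrophages, 1 gene was called with surrogate variables (Gstp1), where 224 of all genes were called in place of 147. When only these 2 groups were fitted 1 was called (Ncf1), and 0 to 0 with a library left out. In MHCII+CD11c- macrophages 1 was called in place of 2 with total counts as the scale and 1 when only the 2 groups were fitted. DESeq2 and surrogate variables called 3 each (Gsr added in both), and leaving out a library gave 0 to 2. Of all genes, 107 were called there in the main fit, 84 with total counts, 286 with DESeq2 and 235 with surrogate variables. In MHCII+CD11c+ macrophages the number was 0 throughout. For the mean over subsets, DESeq2 and equal depth called 5 each (Cybb and Ncf1 added), where they called 935 and 436 of all genes in place of 511. Leaving out a library gave 2 to 5 for this mean, with 5 without control library 2 of MHCII+CD11c- macrophages (Cyba and Ncf1 added). Between controls, leaving out a library gave 0 to 1 calls for LYVE1+CX3CR1+ against MHCII+CD11c-, 5 to 10 for LYVE1+CX3CR1+ against MHCII+CD11c+ and 5 to 8 for MHCII+CD11c+ against MHCII+CD11c-. For the last, DESeq2 called 8 and surrogate variables 9 in place of 5, where 1948 and 1633 of all genes were called in place of 1323. Numbers of all genes called with a library left out, with only 2 groups fitted or with replicate blocks are not given here. The cause of these shifts was not tested.

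The labels do not state what libraries with the same replicate number share. Deviations from the group mean correlated at 0.0796 to 0.286 between same-numbered MHCII+CD11c- and MHCII+CD11c+ controls. There 6 of 6 libraries correlated best with their own number. Other pairs of subsets within a treatment gave 0.001 to 0.127. LYVE1+CX3CR1+ controls paired best by own number in 5 of 6 libraries with MHCII+CD11c+ and 3 of 6 with MHCII+CD11c- controls. After IC it was 5 of 6 for LYVE1+CX3CR1+ with MHCII+CD11c-, and 3 of 4 for each pair with MHCII+CD11c+. Control libraries numbered 2 had 11.3% to 13.4% mitochondrial counts, and the other controls 6.80% to 9.84%. With the replicate block the calls were 0, 2 and 0 for IC in the 3 subsets, 3 for their mean, and 1, 6 and 6 between controls. With the replicate block within treatment, 8 were called for MHCII+CD11c+ against MHCII+CD11c- controls and 1 in the interaction of LYVE1+CX3CR1+ and MHCII+CD11c+ macrophages (Sod3, at 0 counts after IC in the first). Groups of 2 or 3 libraries and a biological coefficient of variation of 45.1% limit what could be called, and low genes (Nqo1, and Sod3 outside MHCII+CD11c+ macrophages) rest on few counts.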
